A study of Homo sapiens with 12 samples.

Results

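The genes described here are 10 members of the pathway that prepares peptides for major histocompatibility complex (MHC) class I molecules. They are the immunoproteasome subunits PSMB8, PSMB9 and PSMB10, the peptide transporter subunits TAP1 and TAP2, the loading factor TAPBP (tapasin), the trimming peptidases ERAP1 and ERAP2, the class I light chain B2M, and NLRC5, a transactivator of class I genes. They were chosen by name, with earlier results of these data known, so counts of calls among them are descriptions and not independent support. Every probe set that the platform annotation assigns to exactly 1 of these symbols was used. This gave 25 of the 54613 probe sets that are not controls, and 10 of the 19775 genes with such a probe set. Where a gene is given 1 value, it comes from whichever of its probe sets was brightest on average across all 12 arrays.

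Nucleated cells cut cytosolic proteins with the proteasome and carry some of the peptides into the endoplasmic reticulum through the TAP transporter. There the peptides are trimmed by ERAP1 and ERAP2 and loaded, with the help of tapasin, onto a class I heavy chain paired with B2M. In the immunoproteasome, PSMB8, PSMB9 and PSMB10 take the places of the constitutive catalytic subunits PSMB5, PSMB6 and PSMB7, which changes the peptides that are made. Interferon raises the RNA of most of these genes, and tumour cells often differ from one another in how much of them they hold.

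The cells were IGROV-1, a line long kept in culture from a human ovarian carcinoma, and their RNA was hybridised to Affymetrix U133 Plus 2.0 arrays in 4 groups of 3. Parental cells were not transfected. Mock cells received a plasmid with a scrambled RNA by Lipofectamine and were kept as a pool of clones. The groups shCXCR4 I and shCXCR4 II received plasmids with short hairpin RNAs (shRNAs) of different sequence against CXCR4, the receptor of the chemokine CXCL12, and were kept as individual clones. Mock and both shCXCR4 lines were selected in 4 µg/ml puromycin for 30 days, and each array used 6 µg of total RNA. The lines differ from Mock in the shRNA and also in being clones, so knockdown and clonal origin cannot be told apart. Nothing in the labels says that the 3 arrays of a group came from separate cultures, so p-values here reflect array-to-array spread alone, which may be technical. In a bulk sample, fewer cells with a transcript and less of it per cell cannot be told apart.

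The probe set 217028_at of CXCR4 read 35.6% of Mock in line I (limma adjusted p = 8.67e-08) and 25.7% of Mock in line II (limma adjusted p = 4.39e-09). Array medians lay between 4.25 and 4.39 on the log2 scale, and Pearson correlations across probe sets were 0.996 to 0.998 within groups. The interquartile range was wider in the 3 Mock arrays, at 3.38 to 3.43, than in the other 9, at 3.19 to 3.31, and its part in the differences from Mock was not tested. The direction of calls over all genes moved with the scaling. Of the genes called in line I against Mock, 40.3% were higher, against 53.5% after quantile normalization and 22.7% with array medians set equal. The same shares were 39.4%, 53% and 20.0% for line II against Mock, 64.3%, 54.4% and 74.4% for Mock against Parental, and 41.2%, 51.5% and 28.8% for line II against Parental. Summed linear values of 10 leukocyte markers were 179 to 199.6 in Mock, 211 to 217 in Parental, 220.1 to 235 in line I and 218 to 243 in line II. Between 5 and 6 of these 10 markers lay below the array median in each group. For 9 fibroblast and endothelial markers the sums were 292 to 299 in Mock and 308 to 365 in the other groups. The part of these small differences in the results was not tested.

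Of the 10 class I processing genes, 7 had their highest group mean in Mock and 6 their lowest in line II. The shares of all genes with these orders were not counted, so whether the counts are unusual is not known. By limma's F test over the 4 groups, with Benjamini-Hochberg adjustment over all probe sets at 0.05, 8 of the 10 genes differed between groups, against 28.6% of all genes. PSMB8 and B2M did not pass, though B2M did on a probe set other than its brightest, 216231_s_at (limma F test adjusted p = 0.0079). Line II fell below Mock in 7 genes (PSMB9, PSMB10, TAP1, TAP2, TAPBP, ERAP1 and ERAP2), where 12.6% of all genes fell. Of 11 epithelial markers, 6 also fell there (KRT7, KRT18, KRT19, CDH1, WT1 and FOLR1), and the summed linear values of the 11 were 11740 to 12460 in line II against 14370 to 15060 in Mock; their part in the members' fall was not tested. No member rose in line II against Mock by limma's adjusted p, against 8.19% of all genes, and 1 did at an unadjusted p under 0.05. Line I fell below Mock in PSMB9 and PSMB10, that is 2 genes against 11.3% of all genes, and rose in NLRC5, 1 gene against 7.67%. The same 2 genes were the members that fell in both lines, where 7.39% of all genes did. Mock rose above Parental in 3 genes (PSMB9, TAP1 and TAP2), against 7.28% of all genes, and fell in 0 by limma's adjusted p, against 4.05%, with 0 also at an unadjusted p under 0.05. The median log2 difference over the 10 genes against Mock was -0.16 for I and -0.35 for II, where all genes had 0.02 in both, and 0.20 for Mock against Parental, where all genes had 0.0005. These comparisons share the Mock arrays, and the members were chosen with earlier results of these data known.

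Fewer members passed in the lines against Parental. Line II fell below Parental in 3 genes (PSMB9, ERAP1 and ERAP2), against 7.72% of all genes, and rose in 0 by limma's adjusted p, against 5.41%, with 1 at an unadjusted p under 0.05. Line I rose above Parental in NLRC5, 1 gene against 6.52%, and fell in 0 by limma's adjusted p, against 6.93%, with 0 at an unadjusted p under 0.05. The medians over the 10 genes were -0.15 for line II and 0.12 for line I against Parental, and 0.02 over all genes in both. Between the lines, 5 members were higher in I (PSMB9, TAP2, TAPBP, ERAP2 and NLRC5), against 3.12% of all genes, and 0 were lower by limma's adjusted p, against 1.38%, with 0 at an unadjusted p under 0.05. The median difference between the lines was 0.30 over the members and -0.004 over all genes. At the level of probe sets, 12 of the 25 fell in line II against Mock (9.23% of all probe sets fell) and 7 were higher in line I than II (2.02% of all).

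**Figure D1:**
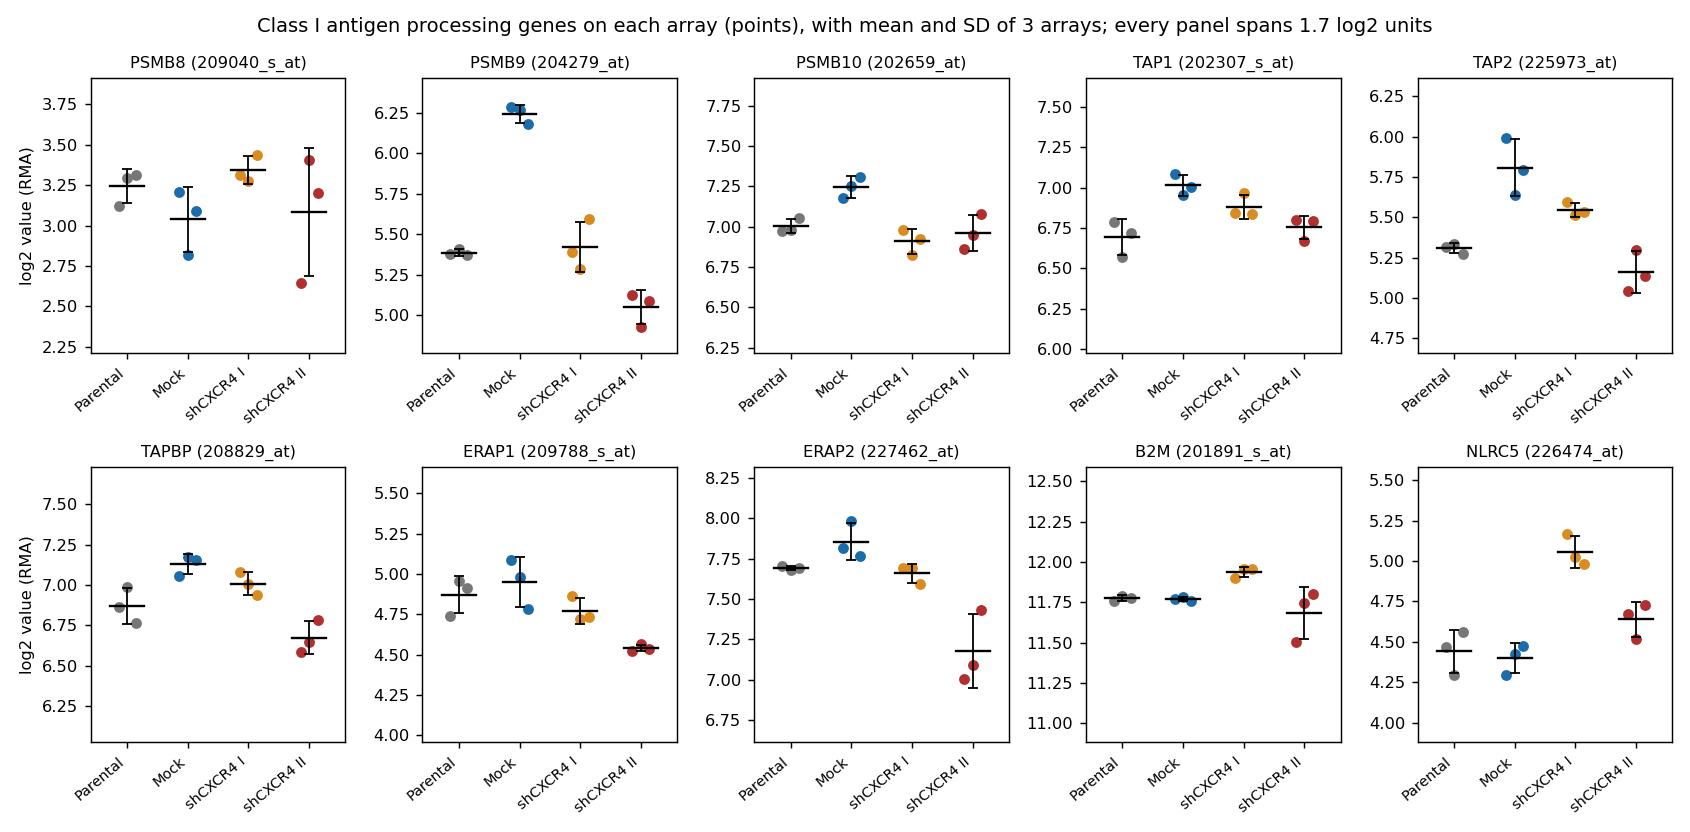
Log2 values (RMA) of the 10 genes, 1 point per array, with the mean (line) and SD (bar) of the 3 arrays of each group; every panel spans the same 1.7 log2 units. The Mock points of PSMB9 lie at 6.18 to 6.29, above all 9 other arrays, and the line I points of NLRC5 lie at 4.98 to 5.17, above all 9 others.

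Of the catalytic subunits, PSMB9 (also known as LMP2, which replaces PSMB6) varied most. On 204279_at its log2 values were 5.38, 5.41 and 5.37 in Parental, 6.29, 6.27 and 6.18 in Mock, 5.39, 5.28 and 5.59 in line I, and 5.13, 4.93 and 5.09 in line II. Mock stood apart from every other array, and line II lay below all of Parental and line I, while Parental and line I overlapped. PSMB9 RNA was 1.81-fold higher in Mock than in Parental, a log2 difference of 0.86 (SE 0.08, limma adjusted p = 1.56e-05). It was at 56.5% of Mock in line I, a difference of -0.82 (SE 0.08, limma adjusted p = 1.67e-05), and at 43.6% in line II, a difference of -1.20 (SE 0.08, limma adjusted p = 4.25e-07). Line I differed from Parental by 0.04, with a 95% interval from -0.14 to 0.22. Line II was lower than Parental by -0.34 (limma adjusted p = 0.0197), and the adjusted p rose to 0.0906 without line II replicate 2 and to 0.0524, 0.0719 and 0.0568 without Parental replicates 1, 2 and 3.

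PSMB10 (also known as MECL-1, which replaces PSMB7) fell in both lines against Mock by a smaller amount. Its log2 values on 202659_at were 6.97, 6.98 and 7.05 in Parental, 7.18, 7.25 and 7.31 in Mock, 6.98, 6.82 and 6.92 in line I, and 6.86, 6.95 and 7.08 in line II. Mock lay above the other groups without overlap, and the other groups overlapped with each other. Line I differed from Mock by -0.34 (SE 0.08, limma adjusted p = 0.00792). The difference of line II from Mock was -0.28 (SE 0.08, limma adjusted p = 0.0202). The line II call ended after quantile normalization (-0.17, adjusted p = 0.135) and with only the 2 groups fitted (0.0786). It also ended without line II replicate 1 (0.0798) or 2 (0.0618) or Mock replicate 2 (0.0573) or 3 (0.0669). Mock exceeded Parental by 0.24, which did not pass (limma adjusted p = 0.0646). Against Parental the lines differed by -0.09 and -0.04, with 95% intervals from -0.26 to 0.07 and from -0.20 to 0.12.

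PSMB8 (also known as LMP7, which replaces PSMB5) gave no call. Its probe set 209040_s_at read 3.12, 3.29 and 3.31 in Parental, 3.21, 2.82 and 3.09 in Mock, 3.31, 3.28 and 3.44 in line I, and 2.64, 3.41 and 3.20 in line II. All 12 values lay below the array medians, and line II spanned most of the range of the others. The widest difference, line I minus Mock, was 0.31 with a 95% interval from -0.03 to 0.64 (limma adjusted p = 0.218). For line II minus Mock the interval ran from -0.29 to 0.38, which includes the PSMB10 difference.

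**Figure D2:**
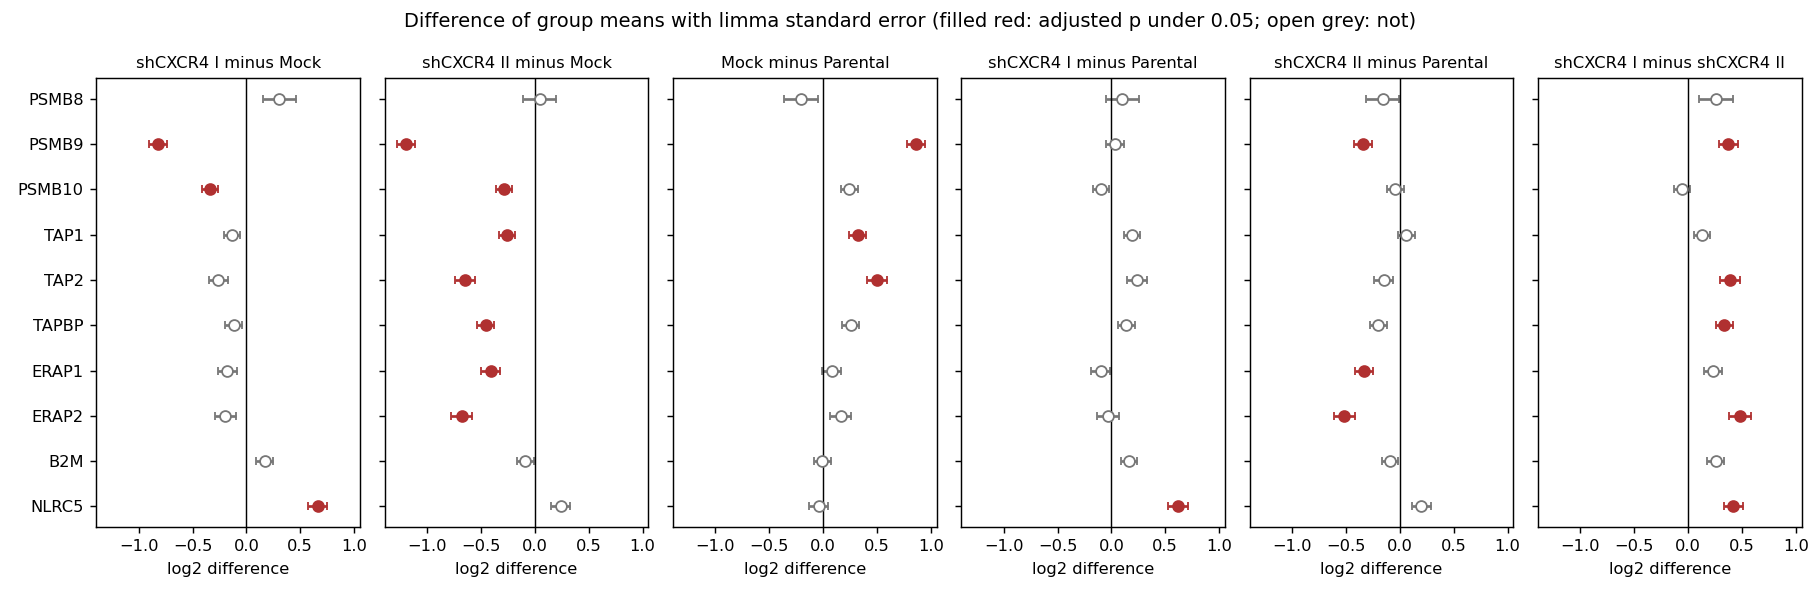
Differences of group means (log2) with limma standard errors for the 10 genes in the 6 comparisons; filled red points passed the test (adjusted p under 0.05) and open grey points did not. PSMB9 has the widest difference, -1.20 for line II minus Mock, and NLRC5 lies on the opposite side of 0 at 0.66 for line I minus Mock.

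In the comparisons that include Mock, the transporter subunits moved with PSMB9 in direction on their brightest probe sets, less widely. TAP2 on 225973_at read 5.32, 5.34 and 5.27 in Parental, 5.99, 5.64 and 5.79 in Mock, 5.60, 5.51 and 5.53 in line I, and 5.04, 5.30 and 5.14 in line II. Mock was above all other arrays, line I was between Mock and Parental, and line II overlapped Parental. TAP2 was 0.50 higher in Mock than in Parental (SE 0.09, limma adjusted p = 0.00337) and 0.65 lower in line II than in Mock (-0.65, SE 0.09, limma adjusted p = 0.000307). Line I differed from Mock by -0.26, which did not pass (limma adjusted p = 0.0739). The other 3 TAP2 probe sets passed in no comparison: line II minus Mock was -0.04 on 204769_s_at, -0.05 on 204770_at and -0.03 on 208428_at. With the mean of all 4 probe sets, the line II difference was -0.19 (adjusted p = 0.0473) and the Mock to Parental difference was 0.12 (adjusted p = 0.253). The TAP2 calls were thus made on 1 probe set of 4.

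TAP1 on 202307_s_at, its single probe set, read 6.79, 6.57 and 6.72 in Parental, 7.08, 6.95 and 7.01 in Mock, 6.84, 6.97 and 6.84 in line I, and 6.80, 6.67 and 6.79 in line II. Mock was above Parental and above line II without overlap, and line I reached into the Mock range. The Mock to Parental difference was 0.32 (SE 0.08, limma adjusted p = 0.0185) and the line II to Mock difference was -0.26 (SE 0.08, limma adjusted p = 0.0343). The line II call ended after quantile normalization (-0.15, adjusted p = 0.222) and with only the 2 groups fitted (0.0867). It also ended without any of the 3 Mock replicates (0.0973, 0.0511 and 0.0685) or line II replicate 1 (0.0569) or 2 (0.124). The Mock to Parental call ended after quantile normalization (0.25, adjusted p = 0.0691) and without Mock replicate 1 (0.0624) or Parental replicate 2 (0.0948) or 3 (0.0511).

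TAPBP, which bridges the transporter and the class I molecule, had a narrower pattern. On 208829_at it read 6.86, 6.99 and 6.76 in Parental, 7.06, 7.17 and 7.15 in Mock, 7.08, 7.01 and 6.94 in line I, and 6.59, 6.65 and 6.79 in line II. Line II was below Mock and below line I without overlap, and it shared its range with Parental. Line II was at 73.0% of Mock, a difference of -0.45 (SE 0.08, limma adjusted p = 0.0018), while line I differed from Mock by -0.12 (limma adjusted p = 0.368). The other 2 TAPBP probe sets did not pass: line II minus Mock was 0.13 on 1555565_s_at and -0.23 on 210294_at. The mean of the 3 probe sets gave -0.18 (adjusted p = 0.0763).

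PSMB9, TAP1, PSMB8 and TAP2 lie side by side in the class II region of chromosome 6, in the order TAP2, PSMB8, TAP1, PSMB9 (RefSeq, GRCh38.p14). TAP1 and PSMB9 are transcribed away from each other, with start sites 488 bases apart in that table. The 250 bases before the start site are shown for these neighbours and for TAP2, TAPBP and PSMB10, since all 5 fell in line II against Mock. Capitals mark matches, on either strand, to GAAANNGAA, the repeat that interferon regulatory factors bind, and to TTCNNNGAA, a site of STAT dimers. Each is written 5′ to 3′ on the strand of its gene.
PSMB9, chr6:32853942-32854191, plus strand: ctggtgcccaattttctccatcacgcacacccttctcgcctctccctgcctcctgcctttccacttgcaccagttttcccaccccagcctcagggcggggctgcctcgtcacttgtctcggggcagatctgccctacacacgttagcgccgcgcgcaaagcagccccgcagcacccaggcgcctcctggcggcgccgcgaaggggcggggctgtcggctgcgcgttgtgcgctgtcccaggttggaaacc
TAP1, chr6:32853705-32853954, minus strand: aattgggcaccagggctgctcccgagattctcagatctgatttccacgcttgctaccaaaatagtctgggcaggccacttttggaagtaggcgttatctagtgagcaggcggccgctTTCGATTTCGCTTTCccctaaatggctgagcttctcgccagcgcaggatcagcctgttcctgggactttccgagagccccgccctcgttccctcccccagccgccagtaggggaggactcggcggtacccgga
TAP2, chr6:32838740-32838989, minus strand: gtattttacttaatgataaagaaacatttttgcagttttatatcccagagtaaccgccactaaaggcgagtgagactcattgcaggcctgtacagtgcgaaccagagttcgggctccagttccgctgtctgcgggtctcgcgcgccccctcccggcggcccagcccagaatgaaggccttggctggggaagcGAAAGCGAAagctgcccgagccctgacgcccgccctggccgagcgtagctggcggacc
TAPBP, chr6:33314079-33314328, minus strand: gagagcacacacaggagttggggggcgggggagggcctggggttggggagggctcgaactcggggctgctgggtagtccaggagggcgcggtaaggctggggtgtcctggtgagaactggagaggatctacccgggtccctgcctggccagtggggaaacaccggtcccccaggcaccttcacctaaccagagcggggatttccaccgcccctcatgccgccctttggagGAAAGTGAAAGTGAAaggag
PSMB10, chr16:67936851-67937100, minus strand: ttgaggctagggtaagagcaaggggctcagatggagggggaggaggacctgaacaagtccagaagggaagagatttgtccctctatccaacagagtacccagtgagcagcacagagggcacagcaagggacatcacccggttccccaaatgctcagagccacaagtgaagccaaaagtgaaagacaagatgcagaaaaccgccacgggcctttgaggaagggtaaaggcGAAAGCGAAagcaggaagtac
The search covered windows from 250 bases before to 50 after each start, of which 9 members have at least 1 in the table, and NLRC5 was not among them. GAAANNGAA was found in a window of 8 of these 9 genes (PSMB8, PSMB10, TAP1, TAP2, TAPBP, ERAP1, ERAP2 and B2M), in 9.86% of all 27305 symbols and in 8.11% of all 35116 windows. The gene without it in its window was PSMB9, the member with the widest change. The TAP1 matches, at -133 and -127 from the TAP1 start, lie between the start sites of TAP1 and PSMB9. They fall outside the window searched for PSMB9, so its lack of a match holds for that window only. TTCNNNGAA was found for 2 of the 9 genes (PSMB8 and TAP1), in windows other than those printed. It was found in 9.38% of all symbols and in 7.66% of all windows. In TAP1, TAPBP and B2M the first motif occurs as an overlapping pair. A match is a description of letters and does not show that a factor binds there.

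Genes around this cluster were compared in the order of the annotation. HLA-DMA, a class II peptide editor 2 genes beyond PSMB9, rose by 1.15 in Mock against Parental (SE 0.12, limma adjusted p = 1.91e-05) and changed from Mock by -0.49 (line I, limma adjusted p = 0.0112) and -0.68 (line II, limma adjusted p = 0.00139). The line I call for HLA-DMA ended without Mock replicate 2 (adjusted p = 0.0521). HLA-DMB, between PSMB9 and HLA-DMA, had 0.04, 0.05 and -0.09 in the same comparisons and did not pass. On the far side of TAP2, HLA-DOB had -0.23 for Mock against Parental (limma adjusted p = 0.157) and rose by 0.36 in line I against Mock (limma adjusted p = 0.0167). HLA-DQA1, farther out on that side, rose by 0.28 in line I against Mock (limma adjusted p = 0.0372). BRD2, the next gene beyond HLA-DMA, had 0.03 for Mock against Parental. It had -0.36 for line I against Mock (limma adjusted p = 0.0155) and -0.26 for line II, which did not pass (limma adjusted p = 0.0595). In these comparisons with Mock, TAP1, TAP2 and HLA-DMA had the direction of PSMB9, and PSMB8 and HLA-DMB between them did not pass. Against Parental, HLA-DMA was higher in both lines, by 0.66 in I and 0.47 in II (limma adjusted p = 0.00166 and 0.0174), where PSMB9 had 0.04 and -0.34. The second of these HLA-DMA calls ended without line II replicate 3 or Parental replicate 1 (adjusted p up to 0.0691).

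**Figure D3:**
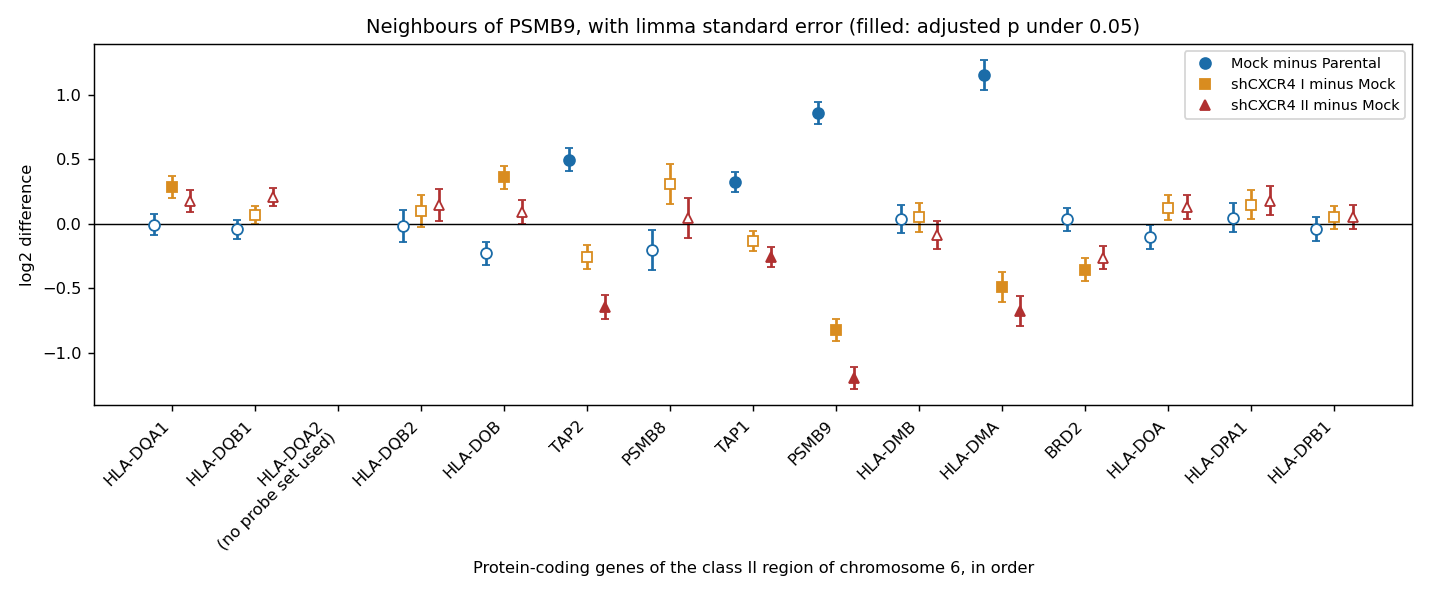
Log2 differences with limma standard errors for protein-coding genes around PSMB9, in their order on chromosome 6; filled points passed the test. TAP2, TAP1, PSMB9 and HLA-DMA have filled points above 0 for Mock minus Parental and below 0 for line II minus Mock, while PSMB8 and HLA-DMB have open points in all 3 comparisons.

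ERAP2, which trims peptides in the endoplasmic reticulum, fell in line II against both controls. On 227462_at it read 7.70, 7.68 and 7.69 in Parental, 7.81, 7.98 and 7.77 in Mock, 7.69, 7.69 and 7.59 in line I, and 7.002, 7.09 and 7.43 in line II. All 3 line II arrays were below the other 9, and line I overlapped Parental. Line II was at 62.5% of Mock, a difference of -0.68 (SE 0.10, limma adjusted p = 0.00044), and at 70.0% of Parental, a difference of -0.52 (SE 0.10, limma adjusted p = 0.00398). Line I differed from Mock by -0.20 (limma adjusted p = 0.216) and from Parental by -0.03, with a 95% interval from -0.25 to 0.18.

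Of the 5 ERAP2 probe sets, 4 gave this result. Line II minus Mock was -0.50 on 1554273_a_at, -0.63 on 219759_at and -0.59 on 235104_at (limma adjusted p = 0.0118, 0.000158 and 0.000197). Against Parental these 3 had -0.54, -0.35 and -0.42 (limma adjusted p = 0.00977, 0.0132 and 0.00351). The remaining probe set, 1554272_at, had a mean log2 value of 1.99 and differed by -0.05 in both comparisons. ERAP2 was the member whose fall in line II was seen on the largest number of its probe sets, and both calls held under all 22 alternatives that kept the threshold.

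ERAP1, the neighbour of ERAP2 on chromosome 5 and another trimming peptidase, also fell in line II. On 209788_s_at it read 4.74, 4.96 and 4.91 in Parental, 5.08, 4.98 and 4.78 in Mock, 4.86, 4.72 and 4.73 in line I, and 4.52, 4.56 and 4.53 in line II. Line II was below all other arrays, and the other groups overlapped. The difference was -0.41 against Mock (SE 0.09, limma adjusted p = 0.00589) and -0.33 against Parental (SE 0.09, limma adjusted p = 0.0259). On 210385_s_at line II minus Mock was -0.49 (limma adjusted p = 0.0409). On 214012_at, whose mean of 2.91 lay below the array medians, both lines were lower than both controls, with differences from -0.52 to -0.31 (limma adjusted p from 0.00186 to 0.0474). The probe sets 209701_at and 214034_at passed in no comparison, with -0.17 and 0.03 for line II minus Mock. The call against Parental ended with the mean of the probe sets (-0.22, adjusted p = 0.056) and without line II replicate 1 (0.0719) or 2 (0.0622) or Parental replicate 2 (0.113) or 3 (0.0933). Of the genes near ERAP1 and ERAP2, CAST had -0.34 in line II against Mock and -0.37 against Parental (limma adjusted p = 0.00387 and 0.00254). ELL2 had -0.62 in line II against Mock (limma adjusted p = 0.00697) and -0.41 against Parental, which did not pass (limma adjusted p = 0.0718). LIX1 and RIOK2 had 0.09 and -0.04 in line II against Mock and did not pass. The part of this location in the fall was not tested.

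**Figure D4:**
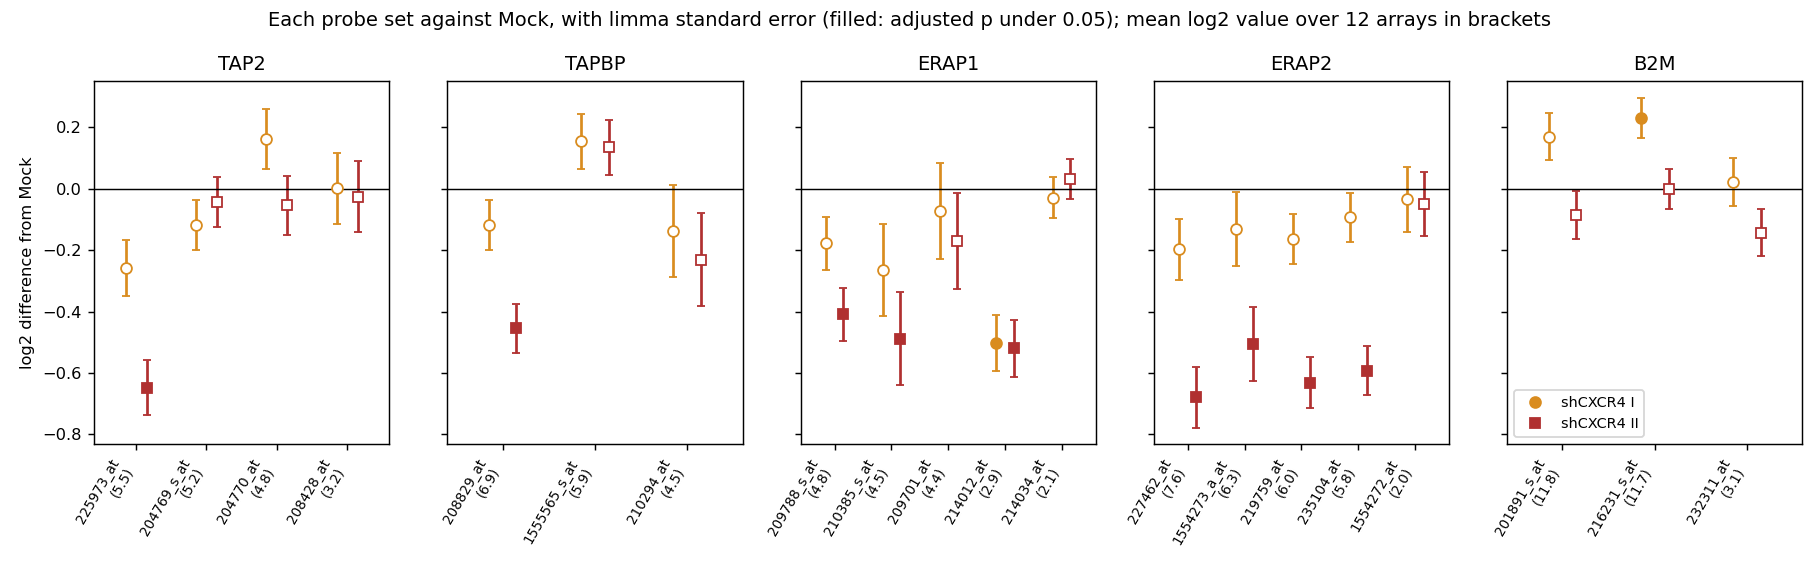
Log2 difference from Mock with limma standard errors for every probe set of the 5 members with more than 1, in order of mean signal (in brackets); circles are line I, squares line II, and filled symbols passed the test. In ERAP2, 4 of 5 squares are filled between -0.68 and -0.50, while in TAP2 and TAPBP only the probe set with the highest mean is filled.

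B2M, the light chain of every class I molecule, gave calls on 216231_s_at but not on its brightest probe set. On 201891_s_at it read 11.76, 11.79 and 11.78 in Parental, 11.77, 11.78 and 11.76 in Mock, 11.90, 11.95 and 11.96 in line I, and 11.50, 11.74 and 11.80 in line II. Line I was above the other groups without overlap, by 0.17 over Mock, which did not pass (limma adjusted p = 0.168). On 216231_s_at line I was 0.23 higher than Mock (SE 0.07, limma adjusted p = 0.0294) and 0.35 higher than Parental (SE 0.07, limma adjusted p = 0.00273). Line II minus Mock was -0.09 on the first of these and -0.0005 on the second, with 95% intervals from -0.25 to 0.08 and from -0.14 to 0.14. The third probe set, 232311_at, had a mean of 3.08 and passed in no comparison.

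NLRC5, a regulator that binds with other factors at class I promoters, went the other way. Its values on 226474_at were 4.47, 4.29 and 4.56 in Parental, 4.30, 4.43 and 4.47 in Mock, 5.17, 5.03 and 4.98 in line I, and 4.67, 4.52 and 4.73 in line II. Line I was above all other arrays, line II was above Mock and overlapped Parental, and the controls overlapped. NLRC5 was 1.58-fold higher in line I than in Mock, a difference of 0.66 (SE 0.09, limma adjusted p = 0.000193), and 1.53-fold higher than in Parental, a difference of 0.62 (SE 0.09, limma adjusted p = 0.000367). In line II the differences were 0.24 from Mock (limma adjusted p = 0.0811) and 0.20 from Parental (limma adjusted p = 0.188). Neither passed, and the unadjusted 95% interval of the second ran from 0.007 to 0.39. The order of NLRC5 over the groups, with line I first and Mock last, is thus not the order of PSMB9, TAP2 or ERAP2, in which Mock came first and line II last.

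The difference between the lines was tested directly. Line I exceeded line II by 0.37 for PSMB9 (SE 0.08, limma adjusted p = 0.0275), 0.39 for TAP2 (SE 0.09, limma adjusted p = 0.0335) and 0.34 for TAPBP (SE 0.08, limma adjusted p = 0.0364). For ERAP2 it was 0.48 (SE 0.10, limma adjusted p = 0.0169) and for NLRC5 0.42 (SE 0.09, limma adjusted p = 0.0204). With the probe sets of a gene averaged, the differences were 0.14 for TAP2 (adjusted p = 0.277) and 0.15 for TAPBP (adjusted p = 0.282), so both calls rest on 1 probe set. In 8 of the 10 genes every line I array was above every line II array, where this held for 13% of all genes. The call count was sensitive to single arrays: it fell from 5 to 0 without line I replicate 1, to 1 without line I replicate 2, line II replicate 1 or line II replicate 2, to 2 without line I replicate 3 and to 3 without Parental replicate 1. Of 11 epithelial markers, 7 were also higher in line I than II (3.12% of all genes were), among them KRT7 by 0.32 and CDH1 by 0.97 (limma adjusted p = 0.0351 and 5.7e-06). Their part in the difference between the lines was not tested.

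None of the constitutive catalytic subunits passed against Mock. PSMB5, PSMB6 and PSMB7 differed from Mock by -0.12, -0.18 and -0.07 in line I and by -0.02, 0.07 and 0.03 in line II (limma adjusted p from 0.0744 to 0.867). Mock and Parental differed by -0.02 to 0.01 in these 3 genes. Of 13 measured subunits of the constitutive core, 1 fell in line I against Mock (PSMB2, -0.25) and 1 rose in Mock against Parental (PSMA3, 0.30). Over all genes, 11.3% and 7.28% did. The same list had 0 calls for line II against Mock by limma's adjusted p, where 12.6% of all genes fell and 8.19% rose. At an unadjusted p under 0.05, 2 genes of the list rose there and 0 fell. PSMB6 was 0.25 lower in line I than II (-0.25, limma adjusted p = 0.0435), a call that ended without any 1 of the 12 arrays except line II replicate 3 (adjusted p from 0.052 to 0.146). PSME1, a subunit of the activator that interferon induces, had -0.24 for line II against Mock (limma adjusted p = 0.0211). That call ended after quantile normalization (-0.14, adjusted p = 0.128) and with only the 2 groups fitted (0.0955). It also ended without line II replicate 1 (0.0685) or 2 (0.0561) or Mock replicate 2 (0.0674).

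Of the loading factors and editors beside tapasin, TAPBPL (also known as TAPBPR, a peptide editor related to tapasin) followed the same order. It rose by 0.45 in Mock against Parental (SE 0.07, limma adjusted p = 0.00153) and changed from Mock by -0.30 (line I, limma adjusted p = 0.0156) and -0.47 (line II, limma adjusted p = 0.0008). The line I call ended without line I replicate 2 (0.061) or 3 (0.0511) or Mock replicate 2 (0.0703). PDIA3, an oxidoreductase of the loading complex, had -0.22 for line II against Mock (limma adjusted p = 0.0282). That call ended after quantile normalization (-0.15, adjusted p = 0.105) and with only the 2 groups fitted (0.115). It also ended without any of the Mock replicates (0.068, 0.065 and 0.0543) or line II replicate 1 (0.0911) or 2 (0.0767). The chaperones CALR and CANX had -0.13 and 0.03 in line I and -0.08 and 0.003 in line II and did not pass. Of the 8 genes of that list, 3 fell in line II, 1 fell in line I and 2 rose in Mock against Parental, where 12.6%, 11.3% and 7.28% of all genes did.

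The class I heavy chains split between the lines. HLA-B on 209140_x_at read 9.39, 9.34 and 9.40 in Parental, 9.79, 9.76 and 9.78 in Mock, 9.70, 9.72 and 9.74 in line I, and 9.27, 9.26 and 9.39 in line II. Mock and line I were above Parental and line II without overlap. HLA-B was 0.40 higher in Mock than in Parental (SE 0.06, limma adjusted p = 0.00112), 0.47 lower in line II than in Mock (-0.47, SE 0.06, limma adjusted p = 0.000232) and differed by -0.05 between line I and Mock (limma adjusted p = 0.649). HLA-C on 216526_x_at had 0.25, -0.29 and 0.02 in the same comparisons (limma adjusted p = 0.0248, 0.00741 and 0.854). With only the 2 groups fitted, the HLA-C calls for line II against Mock (adjusted p = 0.0579) and for Mock against Parental (0.0572) ended. The HLA-C call for Mock against Parental also ended without Mock replicate 1 (0.0509) or 3 (0.0893) or any of the Parental replicates (0.0712, 0.0896 and 0.0695). Class I heavy chains are close in sequence, and the probe sets named _x_at can bind more than 1 of them, so the gene behind each value is uncertain. HLA-E had 0.16 for line I against Mock on 200905_x_at, its brightest probe set, which did not pass (limma adjusted p = 0.137). On 200904_at, which lacks that mark, HLA-E was 0.37 higher in line I than in Mock (SE 0.07, limma adjusted p = 0.00328) and 0.07 higher in line II, which did not pass (limma adjusted p = 0.541).

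HLA-F on 221875_x_at rose by 0.47 in Mock against Parental (limma adjusted p = 0.00135) and had -0.25 for shCXCR4 II against Mock (limma adjusted p = 0.0362). Its probe set without the mark, 221978_at, had 0.005 and 0.04 there and did not pass. The line II call of HLA-F also ended after quantile normalization (-0.13, adjusted p = 0.276) and with only the 2 groups fitted (0.112). It ended too with its probe sets averaged (-0.14, adjusted p = 0.0732). The same held without line II replicate 1 (0.106) or 2 (0.116), Parental replicate 3 (0.05) or Mock replicate 2 (0.104) or 3 (0.116). HLA-G had -0.23 in line II against Mock on 211528_x_at and did not pass (limma adjusted p = 0.06), while 211529_x_at and 210514_x_at had -0.23 and -0.25 and passed (limma adjusted p = 0.0371 and 0.0383). The fourth HLA-G probe set, 211530_x_at, had -0.04 (limma adjusted p = 0.738). MICA and MICB, ligands of the receptor NKG2D that bind no peptide, fell in both lines against Mock, with -0.40 and -0.55 for line I and with -0.33 and -0.46 for line II (limma adjusted p from 0.000259 to 0.00878). Line I minus Mock was thus near 0 for HLA-B and HLA-C while PSMB9 had -0.82 in the same arrays.

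**Figure D5:**
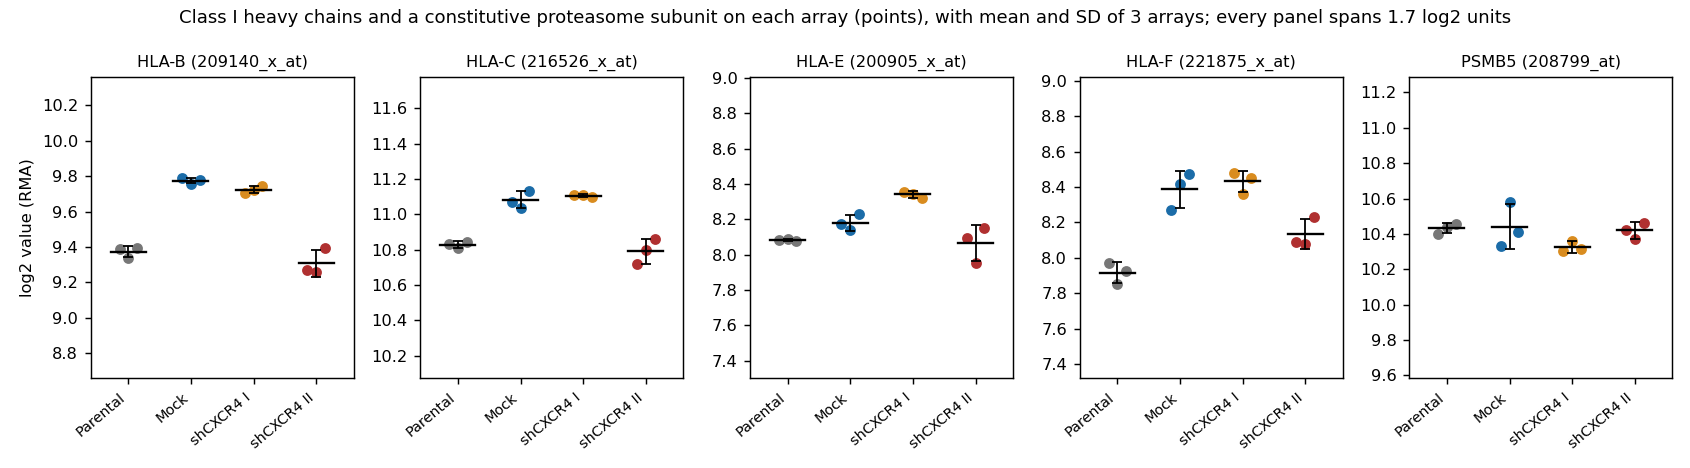
Log2 values (RMA) of 4 class I heavy chain genes and of the constitutive proteasome subunit PSMB5, 1 point per array, with the mean (line) and SD (bar) of 3 arrays; every panel spans 1.7 log2 units. HLA-B and HLA-C lie at like levels in Mock and line I and lower in Parental and line II, while the groups of PSMB5 differ by at most 0.12.

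Of 14 measured regulators of class I and class II genes, 4 fell and 3 rose in line I against Mock, and 7 fell and 1 rose in line II. Over all genes, 11.3% fell and 7.67% rose in line I, and 12.6% fell and 8.19% rose in line II. IRF1, an interferon-induced activator of PSMB9 and TAP1, fell on 202531_at in both lines against Mock, with -0.36 (limma adjusted p = 0.00458) and -0.35 (limma adjusted p = 0.00514), and against Parental, with -0.36 in both (limma adjusted p = 0.00491 and 0.00581). Mock and Parental differed there by -0.006. The other IRF1 probe set, 238725_at, had 0.21 for Mock against Parental (limma adjusted p = 0.218), with every Mock array above every Parental array, and -0.22 and -0.21 against Mock and -0.007 and 0.003 against Parental, and did not pass. With the mean of both probe sets the calls against Parental ended (-0.19 and -0.18, adjusted p = 0.0742 and 0.084). IRF2 rose by 0.54 in Mock against Parental (SE 0.09, limma adjusted p = 0.00221) and had -0.43 for line II against Mock (limma adjusted p = 0.00702). Line I minus Mock was -0.32 for IRF2 (limma adjusted p = 0.0337). That call ended after quantile normalization (adjusted p = 0.0758) and with only the 2 groups fitted (0.0957). It also ended without any 1 line I replicate or Mock replicate 1 or 2. Of those that rose, IRF9 had 0.44 for line I minus Mock (limma adjusted p = 0.00328). CIITA exceeded Mock in each line, with 0.37 for I and 0.42 for II (limma adjusted p = 0.00689 and 0.0035). Its call for I ended with probe sets averaged (0.19, adjusted p = 0.0772).

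Of 30 interferon-stimulated genes, 6 rose and 4 fell in line I against Mock, 1 rose and 12 fell in line II, and 8 rose and 3 fell in Mock against Parental. The shares over all genes were 7.67% and 11.3% for I, 8.19% and 12.6% for II, and 7.28% and 4.05% for Mock. Between the lines, 11 of the 30 were higher in I and 0 lower by limma's adjusted p, and 1 was lower at an unadjusted p under 0.05. Over all genes, 3.12% were higher in I and 1.38% lower by limma's adjusted p. The guanylate-binding proteins GBP2 and GBP3 had 0.85 and 1.04 for I minus II (limma adjusted p = 2.49e-05 and 5.47e-06). GBP2 rose by 0.72 in line I against Mock (limma adjusted p = 2.18e-05) and had -0.40 for Mock against Parental (limma adjusted p = 0.00425). Both directions are opposite to those of PSMB9. IFITM1, an interferon-induced membrane protein, rose by 0.42 in Mock against Parental (limma adjusted p = 0.000813) and changed from Mock by -0.28 (line I, limma adjusted p = 0.0102) and -0.67 (line II, limma adjusted p = 8.98e-06). The line I call of IFITM1 ended after quantile normalization (-0.20, adjusted p = 0.0516). In the list of 12 interferon receptors, kinases and ligands, 2 rose in line I and 3 in line II against Mock, against 7.67% and 8.19% of all genes. By limma's adjusted p 0 fell in each line, against 11.3% and 12.6%, with 1 in each at an unadjusted p under 0.05.

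As a description of the members' profiles, the genes closest to each over the 12 arrays were sought among all other genes, by the root mean square difference of log2 values centred on their own mean. The closest to PSMB9 were IRF2BPL (0.12), STMN3 (0.13) and KRT7 (0.15). TAP2 was closest to IFITM1 (0.09), PCMTD1 (0.10) and MMUT (0.10), and ERAP2 to WDR11 (0.06), ZFP36L1 (0.07) and PERP (0.08). NLRC5 was closest to SLC17A5 (0.07), DHRS7 (0.08) and WARS1 (0.08), the last an interferon-induced tRNA ligase that rose by 0.60 in line I against Mock (limma adjusted p = 8.74e-05).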

How the data were processed

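The deposited values are log2 signals, 1 for each probe set on each array, that the authors computed by RMA under R 2.6.0, per the submitters' processing notes. Which chip definition was used, and how background was treated, is not given in the sources used here. No further normalization was applied. Of 54675 annotated probe sets, 62 are controls, 41091 carry 1 symbol, 1801 several and 11721 none, and only those with 1 named a gene.

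All 54613 probe sets were fitted with limma 3.58.1 in R 4.3.3 (group means, 12 arrays, 8 residual and 5.95 prior degrees of freedom). P-values were adjusted over all of them by Benjamini-Hochberg and called under 0.05. The step was tested on simulated data. The members and the other gene lists were chosen with earlier results of these data known. By rule, the text names all members, the constitutive counterparts, PSME1, IRF1, CALR, PDIA3, CANX, TAPBPL and the HLA class I genes. From each other list it may name up to 3 genes past the test with the largest differences in each comparison with Mock. Neighbours of PSMB9 and ERAP2, the HLA-G and HLA-E probe sets beyond the brightest, and genes named for I minus II were chosen after their values were seen. Promoter sequences and gene order are RefSeq's (GRCh38.p14), matched by symbol. Alternatives covered normalization, probe set choice, variance, weights, samples fitted, a replicate block, a dim filter, the threshold and single arrays, and for genes other than the members they were added after seeing the data.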

Additional observations from a re-analysis of the deposited data

Results flagged for a closer look

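For 5 members the difference from Mock was not the same in the 2 lines by a test of the difference itself. Line I minus line II was 0.37 for PSMB9, whose differences from Mock were -0.82 and -1.20, and 0.39 for TAP2, with -0.26 and -0.65. It was 0.34 for TAPBP, with -0.12 and -0.45, and 0.48 for ERAP2, with -0.20 and -0.68. For NLRC5 it was 0.42, with 0.66 and 0.24. Each line is compared with the same Mock arrays, which cancel in these differences. The limma adjusted p lay between 0.0169 and 0.0364. Without line I replicate 1 the limma adjusted p of these 5 genes lay between 0.0726 and 0.152, so none passed. With probe sets of a gene averaged, the difference was 0.14 for TAP2 (adjusted p = 0.277) and 0.15 for TAPBP (adjusted p = 0.282), so these calls rest on 1 probe set each. Groups of 3 arrays were not searched for outlying arrays.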

How the results depend on the processing

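Of 22 calls of members over the 6 comparisons, 9 passed under all alternatives at the 0.05 threshold: PSMB9 in both lines against Mock and in Mock against Parental, PSMB10 in line I, TAP2 and ERAP2 in line II against Mock, ERAP2 in line II against Parental, and NLRC5 in line I against both controls. Of 1362 values of members under an alternative, 1265 kept direction and side, 24 passed newly and 73 no longer passed. None reversed. Among the new calls, B2M was higher in line I than II under 5 alternatives (adjusted p from 0.00422 to 0.0484), and TAP2 fell in line I against Mock under 4 (adjusted p from 0.0249 to 0.0463). The trended and robust variance raised the count of higher members to 2 in line I against Mock, 5 in Mock against Parental and 2 in line I against Parental. The upper 50% of probe sets gave 1 in line II against Mock and 5 in Mock against Parental, and the fit over 1 probe set per gene gave 5 there. In line I against Parental, 2 rose when probe sets of 1 gene were averaged and when only the 2 groups were fitted. In line II against Parental, 1 of 3 falls remained at adjusted p under 0.01, and 1 to 3 when single arrays were left out. Of the 5 members higher in line I than II, 1 passed with only the 2 groups fitted, 0 at adjusted p under 0.01 and 0 to 5 when single arrays were left out. The replicate block left 3, with TAP2 at adjusted p = 0.0574 and TAPBP at 0.0605, and changed no other call of members. Arrays with the same number did not deviate together (correlations from -0.08 to 0.16, 2 of 12 arrays closest to their own number), so the numbers were not taken to pair them. Without probe sets named _x_at or _s_at, ERAP1 lost its line II calls (-0.17 and -0.18, adjusted p = 0.496 and 0.528), and HLA-F, now read on 221978_at, turned to 0.037 in line II against Mock and to -0.051 in line I against Parental. The causes were not tested. On the brightest probe set of each gene, the smallest member difference that passed was -0.26 (TAP1, line II against Mock), and the widest that did not was 0.31 (PSMB8, line I against Mock).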
